A study of Mus musculus with 53 samples.

Results

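The Hox genes of the A, B, C and D clusters were followed across mouse embryonic stem (ES) cells of 3 genotypes, their differentiation after LIF withdrawal and 4 differentiated cell types. Members were taken by symbol: every gene whose symbol is Hoxa, Hoxb, Hoxc or Hoxd with a number and that has a probe set (the array's unit of measurement) with that symbol alone. Where a gene had several such probe sets, the brightest over all arrays stood for it. This gave 33 members among 18193 measured genes, of 39 Hox genes in the RefSeq gene table. The other 6 were not analysed here. Of the 33 members, 24 passed the filter on dim genes, which asked for a signal above the array's median in at least 2 of 53 arrays. The other 9 (Hoxa13, Hoxb5, Hoxb7, Hoxb9, Hoxb13, Hoxc5, Hoxc9, Hoxd11 and Hoxd12) entered only the alternative fit without that filter. They are given as signals only.

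Hox genes encode homeodomain transcription factors that give cells their position along the head-to-tail axis of the embryo. They lie in 4 clusters, and in each cluster the order of the genes on the chromosome follows the order in which they are switched on and the place where they act: genes with low numbers (paralogs of the 3' end) act first and nearest the head, in the hindbrain, and those with high numbers act last, in the trunk, limbs and tail. In ES cells the clusters are silent and are a classical target of Polycomb repressive complex 2 (PRC2), which methylates lysine 27 of histone H3. Ezh2 is its catalytic subunit and Eed is the subunit that reads the mark and that the complex needs to work.

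The A cluster lies on mouse chromosome 6 between 52155367 and 52260880 (GRCm38.p6) and gave 9 members, 8 of them tested. The B cluster lies on chromosome 11 between 96194316 and 96368254 and gave 9, 5 of them tested. The C cluster lies on chromosome 15 between 102921131 and 103036856 and gave 7, 5 of them tested, and the D cluster on chromosome 2 between 74668225 and 74765142 gave 8, 6 of them tested. By paralog number, 7 members were called anterior here (numbers 1 to 3, all 7 tested), 12 central (4 to 8, 9 tested) and 14 posterior (9 to 13, 8 tested).

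The study compared wild-type ES cells of the lines J1, CJ7 and E14tg1, kept undifferentiated (day 0, 7 arrays) or taken at day 2 (4), day 6 (5) and day 8 (2) of LIF withdrawal, with Ezh2-null ES cells at the same days (6, 4, 5 and 2 arrays) and Eed-null ES cells at days 0, 2 and 6 (5, 2 and 2). At day 0 wild-type replicates 1 and 2 were J1, 3 and 4 CJ7 and 5 to 7 E14tg1, and at day 2 replicates 1 and 2 were J1 and 3 and 4 CJ7. At day 6 replicates 1 to 3 were J1 and 4 and 5 CJ7, and at day 8 both were CJ7. No line is named for either mutant, so genotype and line cannot be told apart. The 4 further groups were mesoendodermal cells marked by T-GFP, a reporter under the brachyury (T) promoter (2), neuronal progenitors marked by Sox1-GFP (3), neuronal stem cells derived from such progenitors (2) and mouse embryonic fibroblasts (MEF, 2); no genotype or day is labelled for them. ES cells had been grown on feeder cells that were depleted at harvest by letting them settle in the plate. All values are deposited linear signal units. Array medians lay between 50.5 and 63, and many Hox signals lay below that, where a probe set's level cannot be told from background. Differences are log2(signal + 32), first group minus second, ± SE of a limma fit over all arrays. A gene was called at a Benjamini-Hochberg adjusted p under 0.05 over 13807 genes and at least 2-fold. In these bulk samples fewer expressing cells and less RNA per cell cannot be told apart. The labels call replicates biological but name no separate cultures, so p-values measure the spread between these arrays.

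The promoters of 4 genes named in the results are shown, picked because their windows differ in sequence. Hoxb1 is an anterior gene that was lower in both mutants at day 6, Hoxa2 an anterior gene that was high in neural cells, and Hoxd9 and Hoxd13 are posterior genes that were higher in Eed-null cells. The windows are the 250 bases before the start in RefSeq's promoter table (GRCm38.p6), read on the gene's strand: Hoxb1 at chr11:96365508-96365757 (plus strand), Hoxa2 at chr6:52164832-52165081 (minus strand), Hoxd9 at chr2:74697513-74697762 (plus strand) and Hoxd13 at chr2:74667975-74668224 (plus strand). Capitals mark a match to TGATNNAT, the letters that Hox proteins and their Pbx partners bind together, searched on both strands; a match on the minus strand appears as its reverse complement.
Hoxb1: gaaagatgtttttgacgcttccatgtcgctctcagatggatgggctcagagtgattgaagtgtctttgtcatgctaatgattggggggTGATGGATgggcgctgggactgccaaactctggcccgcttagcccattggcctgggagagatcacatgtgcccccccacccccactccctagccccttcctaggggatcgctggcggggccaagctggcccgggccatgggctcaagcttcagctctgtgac
Hoxa2: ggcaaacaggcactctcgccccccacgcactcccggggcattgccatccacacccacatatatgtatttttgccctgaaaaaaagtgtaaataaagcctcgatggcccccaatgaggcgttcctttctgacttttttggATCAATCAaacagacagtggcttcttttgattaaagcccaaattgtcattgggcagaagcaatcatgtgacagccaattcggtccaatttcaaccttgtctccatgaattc
Hoxd9: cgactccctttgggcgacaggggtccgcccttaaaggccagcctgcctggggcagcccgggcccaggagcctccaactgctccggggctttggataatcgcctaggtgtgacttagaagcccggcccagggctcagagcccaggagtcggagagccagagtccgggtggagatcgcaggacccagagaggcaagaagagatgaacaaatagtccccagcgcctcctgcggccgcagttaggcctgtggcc
Hoxd13: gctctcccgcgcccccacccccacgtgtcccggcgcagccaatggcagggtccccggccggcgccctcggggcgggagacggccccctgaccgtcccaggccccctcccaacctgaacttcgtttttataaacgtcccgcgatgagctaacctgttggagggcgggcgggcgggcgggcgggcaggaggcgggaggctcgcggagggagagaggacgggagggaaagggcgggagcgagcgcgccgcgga
For Hoxb1 the last 12 bases of the window lie inside the gene as the gene table gives it, and for the other 3 none do. The match begins 162 bases before the promoter table's start in Hoxb1 and 111 in Hoxa2, and these letters do not occur in the Hoxd9 and Hoxd13 windows. The windows hold 7 (Hoxb1), 6 (Hoxa2), 13 (Hoxd9) and 31 (Hoxd13) CpG dinucleotides. The table holds 21 windows of members, which cover 19 of the 33. Of these 21 windows 3 (14.3%) hold a match, beside 7.68% of all 32851 windows, and their median CpG count is 13, beside 6. The third match is in a window of Hoxd11, a posterior gene. The windows of the anterior genes Hoxa3, Hoxd1 and Hoxd3 hold no match and 18, 24 and 12 CpG, and that of the posterior gene Hoxa9 holds 3. The 4 windows shown therefore do not stand for anterior and posterior genes at large. These are letters in a window and no measurement of binding.

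The labels were checked first. Ezh2, the catalytic subunit of PRC2, read 1185 to 1786 in wild-type and 169 to 246 in Ezh2-null arrays at day 0, a difference of -2.59 ± 0.13 (limma, adjusted p = 2.2e-19), and it was lower in the Ezh2-null arrays at day 2 (-2.30 ± 0.16), day 6 (-2.68 ± 0.14) and day 8 (-1.86 ± 0.23) too. The Eed probe set gave 2819.9 to 3099 in Eed-null and 2172 to 2885 in wild-type arrays at day 0, so it is no check of the Eed label. The summed signal of 10 fibroblast markers ran from 443 to 1867 in wild-type and from 466 to 1558 in Ezh2-null arrays at day 0, but from 3920.5 to 7532 in Eed-null replicates 1 to 4, with 525 in replicate 5 and 35245 to 40615 in MEF. At days 2 and 6 the arrays fell into sets by their probe-set patterns: wild-type and Ezh2-null replicates 1 and 2 formed a set of 8, and the remaining 14 arrays, all Eed-null arrays included, a second. The cell types carried their markers: Sox1 read 746, 752 and 789 in Sox1-GFP cells, while neuronal stem cells gave 45.5 and 41.5 with Fabp7, Pax6 and Zic1 called higher than in ES cells. All 6 measured streak and mesoderm markers were called higher in T-GFP cells, and 9 of 10 fibroblast markers in MEF. The T gene itself was not analysed here. Ezh2-null replicate 3 at day 6 stood apart, with 6 ES cell markers summing to 4602 against 13796 to 16538 in the other 4.

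**Figure D1:**
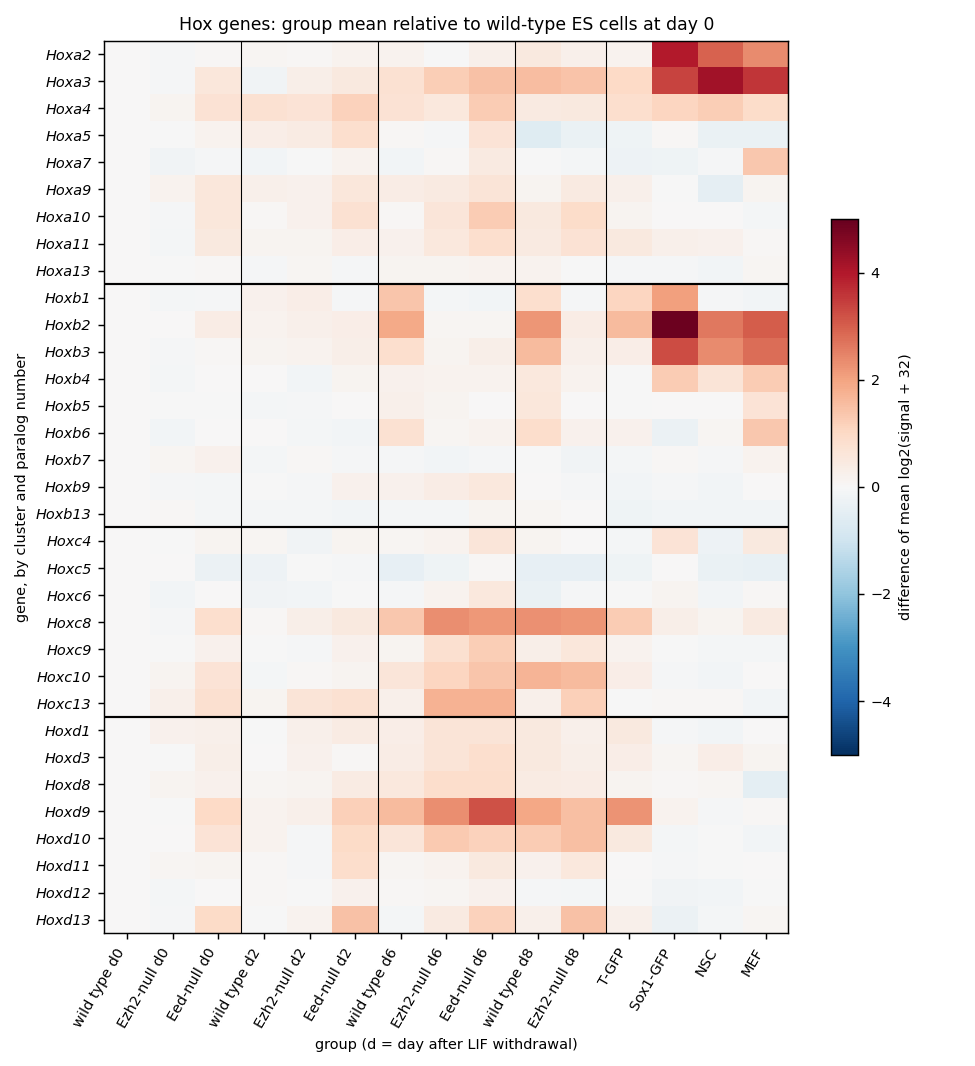
Difference of each group's mean log2(signal + 32) from wild-type ES cells at day 0, for the 33 Hox genes (rows, by cluster and paralog number) and the 15 groups (columns), on a colour scale that reaches 5 on either side of 0. Sox1-GFP cells, neuronal stem cells and MEF are high at the low paralog numbers of the A and B clusters, and differentiating ES cells at Hoxc8, Hoxd9 and Hoxd10.

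In undifferentiated wild-type ES cells Hoxa5, a gene of the neck and lung, read 158 ± 35.4 (SD, n = 7). Over the 15 groups the means of Hoxa5 ran from 90.25 to 301.85, those of Hoxc6, a thoracic gene, from 91.1 to 195, and those of Hoxd8 from 68.85 to 230.3, and none of the 3 was called anywhere. Of the 24 tested members, 8 were called in none of the 21 comparisons: Hoxa5, Hoxa9, Hoxa11, Hoxc4, Hoxc6, Hoxd1, Hoxd3 and Hoxd8. The other 16 gave 64 calls. Hoxb2, a hindbrain gene, had group means from 20.9 in Ezh2-null cells at day 0 to 1527 in Sox1-GFP cells. Signals of different probe sets share no scale, so no gene's level is set against another's.

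LIF withdrawal in wild-type cells was followed by a rise of a few Hox genes from several positions along the clusters. At day 2 none of 24 was called by limma (3.43% of all genes were), with 1 at an unadjusted p under 0.05: Hoxa4, which acts at the neck, read 15.4, 30.4, 52.8 and 47.1 against 4.8 to 11.5 at day 0, a difference of 0.76 ± 0.15 that stayed under 2-fold (adjusted p = 0.00013). Of the day-2 arrays, replicates 1 and 2 were J1 in the first array set, and 3 and 4 CJ7 in the second. Line and set cannot be told apart there. At day 6, 4 of 24 rose and none fell (5.96% of all genes rose and 4.38% fell): Hoxb1, Hoxb2, Hoxc8 and Hoxd9. For each of the 4 all day-6 arrays lay above all day-0 arrays, as for 18% of all genes. The median of the tested members was 0.37, that of all genes 0.04.

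Hoxb1, which sets the identity of a hindbrain segment, read from 12 to 24.6 with a median of 17 at day 0 and 176, 198, 119.8, 28 and 48.4 in wild-type replicates 1 to 5 at day 6. The J1 replicates 1 to 3 were well above the CJ7 replicates 4 and 5. The difference was 1.37 ± 0.18 (adjusted p = 1.9e-08), and within CJ7 alone it was 0.62, under 2-fold. Hoxb2 read from 13.6 to 31.5 with a median of 18.3 at day 0 and 382, 293, 179.5, 60.3 and 69.7 at day 6 (1.88 ± 0.21, adjusted p = 3.2e-10), again with the CJ7 arrays lowest of the 5. Its neighbour Hoxb3, also a hindbrain gene, gave 75.2, 72.1, 27.4, 19.2 and 22.6 and missed the fold (0.86 ± 0.14, adjusted p = 1.4e-06).

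Hoxc8 acts in the thorax and in motor neurons of the arm. It read from 6.4 to 32.8 with a median of 20.8 at day 0 and 258, 211, 60.1, 33.3 and 48.7 at day 6 (1.35 ± 0.23, adjusted p = 3.2e-06). Replicates 1 and 2 were far above the other 3, of which replicate 4 lay just above the highest day-0 array, and among the arrays of the second set, an alternative chosen after seeing the data, the difference was 0.65. Hoxd9, a gene of the lower trunk and forelimb, read 188, 213, 118, 124 and 133 against 24.6 to 33.9 at day 0 (1.57 ± 0.15, adjusted p = 6.8e-12). With a pseudocount 4 times as large, which shrinks the change of dim genes, Hoxb2 alone of the 4 kept the fold, and with J1 arrays only 7 Hox genes were called.

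At day 8, when both arrays were CJ7, 7 of 24 rose and none fell (7.71% of all genes rose and 3.69% fell), with a median of 0.48 beside 0.05 for all genes. They were Hoxa3, Hoxb2, Hoxb3, Hoxc8, Hoxc10, Hoxd9 and Hoxd10. After centring the arrays the all-gene median was -0.10 and the Hox median 0.33, and the all-gene calls went from 1065 higher and 509 lower to 831 and 775. Hoxc10, which with Hoxd10 specifies the lumbar spinal cord and suppresses ribs, read 111 and 102 against 5.2 to 13.8 at day 0 (1.70 ± 0.28, adjusted p = 3.7e-06). At day 6 it had been split by array set: 100.2, 81.5, 11.4, 11.2 and 9.1. Hoxd10 read 117 and 142 against 24 to 46.1 (1.26 ± 0.17), and Hoxc8 228 and 204 (2.30 ± 0.31). Hoxb1 stood at 50.5 and 65.8 and was not called (0.86 ± 0.25, adjusted p = 0.0045). Hoxa3, a gene of the thymus and parathyroid primordia, read 95.4 and 128.4 (1.53 ± 0.19), though with its probe sets averaged it was at 0.47. Fibroblast markers moved along with these genes: their sum was 7173 to 8242 at day 8, and 6 of 10 were called higher than at day 0. The MEF-high gene Hoxa2 read 24.2 in both arrays at day 8, against 3.3 to 13.1 at day 0 and 165 and 183 in MEF. Of the genes that rose, Hoxa3 (539 and 566), Hoxb2 (372 and 424) and Hoxb3 (217 and 271) were high in MEF too. Hoxc8 (34.2 and 39.9), Hoxc10 (8.3 and 13.8), Hoxd9 (31.8 and 34.3) and Hoxd10 (28.9 and 29.9) read below the day-8 arrays in MEF. The part of fibroblasts in these rises was not tested.

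**Figure D2:**
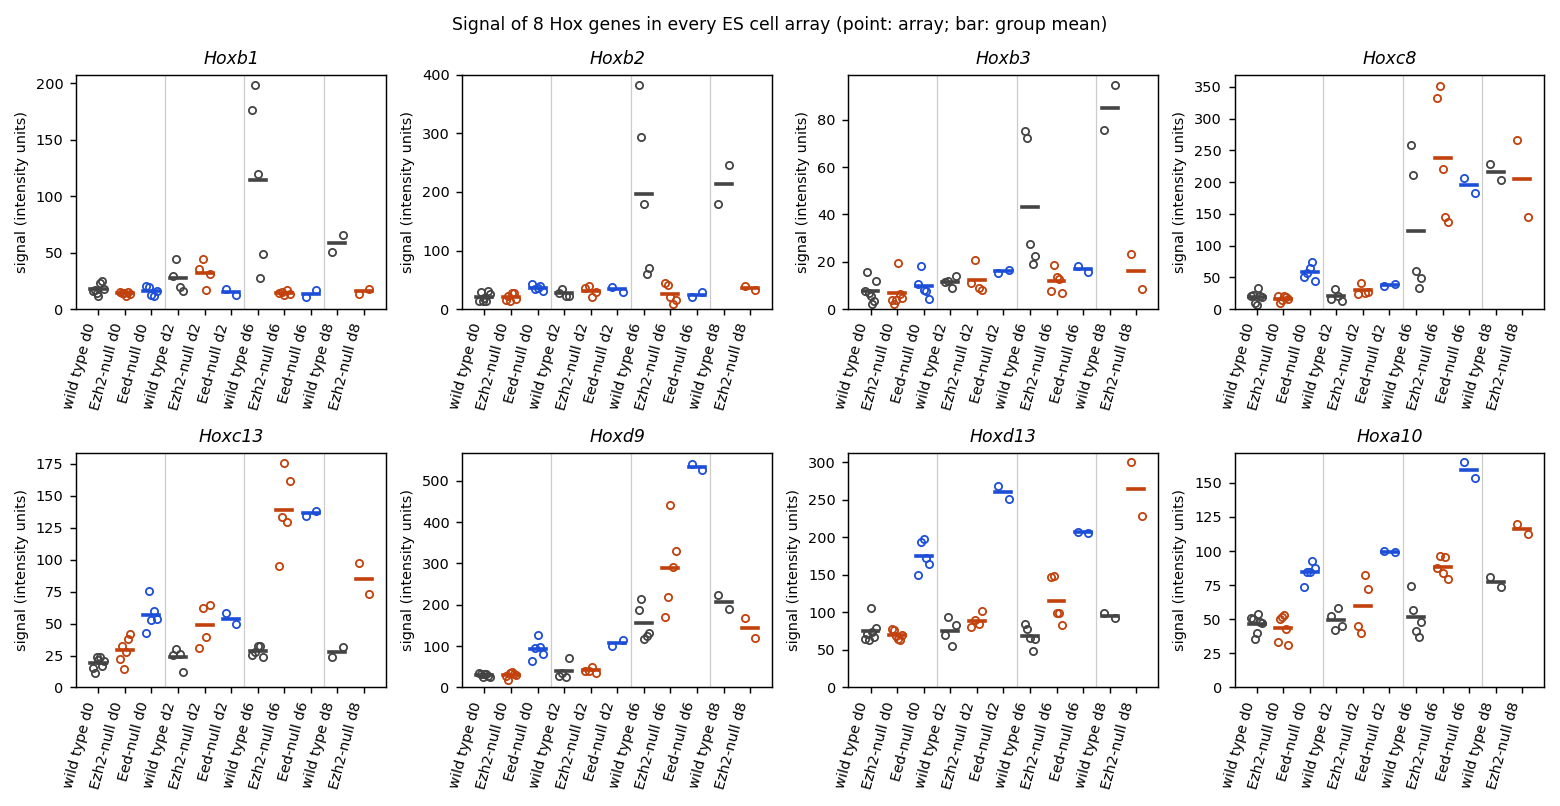
Deposited signal of Hoxb1, Hoxb2, Hoxb3, Hoxc8, Hoxc13, Hoxd9, Hoxd13 and Hoxa10 on each ES cell array (points), with the group mean (bar), for the 3 genotypes by day. At day 6 Hoxb1 and Hoxb2 are high in the wild-type arrays and near the day-0 level in both mutants, while Hoxc13, Hoxd13 and Hoxa10 are highest in mutant arrays.

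Sox1-GFP neuronal progenitors had 7 of 24 Hox genes higher than ES cells and none lower (9.33% of all genes were higher and 4.08% lower), all of them with paralog numbers 1 to 4: Hoxa2, Hoxa3, Hoxa4, Hoxb1, Hoxb2, Hoxb3 and Hoxb4. Hoxa2, which patterns the hindbrain and the second pharyngeal arch, read 599, 669 and 519 against 3.3 to 13.1 in ES cells (3.97 ± 0.11, adjusted p = 2.0e-30). Hoxb2 read 1429, 1604 and 1548 (4.89 ± 0.24) and Hoxb1 175, 149.5 and 195 (2.04 ± 0.21). Of the posterior genes none was called, and Hoxd9 (51.4, 40.4 and 23.3) and Hoxc10 (7.9, 13.3 and 6.4) overlapped the ES cell range. The 95% interval for Hoxd9 was -0.19 to 0.52 and for Hoxc13 -0.22 to 0.34. Across the 24 tested genes the Spearman correlation of paralog number with the difference was -0.582, a description, since neighbouring genes are not independent. Hoxa4 was at 0.94 without replicate 1, just under 2-fold. A probe set with the symbols of both Hoxb8 and Hoxb7, which stood for no member, had a mean of 266 in Sox1-GFP cells. That was above its level in wild-type ES cells, and it is not among the genes counted here.

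Neuronal stem cells had 5 of 24 higher (12.3% of all genes): Hoxa2, Hoxa3, Hoxa4, Hoxb2 and Hoxb3. Centring each array moved the median of all genes from 0.02 to -0.13 and the all-gene calls from 1698 higher and 1501 lower to 1404 and 1926. Hoxa3 read 865 and 908, its highest level in the series (4.21 ± 0.19, adjusted p = 1.2e-22). Against the Sox1-GFP progenitors, 3 Hox genes were lower (8.79% of all genes were): Hoxb1 (14.5 and 17.3, -2.09 ± 0.28, adjusted p = 4.8e-08), Hoxb2 (309 and 280.4, -2.25 ± 0.32) and Hoxa2 (285 and 265, -1.03 ± 0.14). Hoxb1 was back within the range of undifferentiated ES cells. Hoxa3 went the other way and missed the fold (0.85 ± 0.22, adjusted p = 0.0016), with both stem cell arrays above all 3 progenitor arrays, as for 31.6% of all genes. The Hoxa2 difference was near the 2-fold limit and was -0.94 without Sox1-GFP replicate 2 and -0.98 without stem cell replicate 2.

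MEF had 7 of 24 higher than ES cells (14.2% of all genes), which reached further along the clusters: Hoxa2, Hoxa3, Hoxa7, Hoxb2, Hoxb3, Hoxb4 and Hoxb6. Hoxa7 and Hoxb6, genes of the thorax, read 67.6 and 82 and 87.3 and 96.4 (1.35 ± 0.13 and 1.34 ± 0.22, adjusted p = 7.2e-12 and 9.2e-07). For Hoxa7 no other array exceeded 27.9. Hoxd9 (31.8 and 34.3), Hoxc13 (13 and 15.6) and Hoxd13 (79.2 and 85.7) overlapped the ES cell arrays of day 0 or lay inside their range. With the larger pseudocount 4 genes were called.

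T-GFP cells, the mesoendoderm, had 5 of 24 higher than day-0 ES cells (5.56% of all genes): Hoxa3, Hoxb1, Hoxb2, Hoxc8 and Hoxd9. Hoxd9 read 278 and 249 (2.25 ± 0.21, adjusted p = 5.2e-12) and Hoxb1 89.3 and 55.8 (1.06 ± 0.25); without replicate 1 Hoxb1 gave 0.82 (adjusted p = 0.056). Against wild-type cells at day 6, 0 of 24 were called by limma (0.659% of all genes) and 5 had an unadjusted p under 0.05. Hoxb3 read 14.7 and 20.9 in T-GFP cells and 75.2, 72.1, 27.4, 19.2 and 22.6 in wild type at day 6 (-0.52 ± 0.20, adjusted p = 0.14), with overlap. Against day 0, 3 Hox genes were called with each array centred on its median and 1 with the larger pseudocount.

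**Figure D3:**
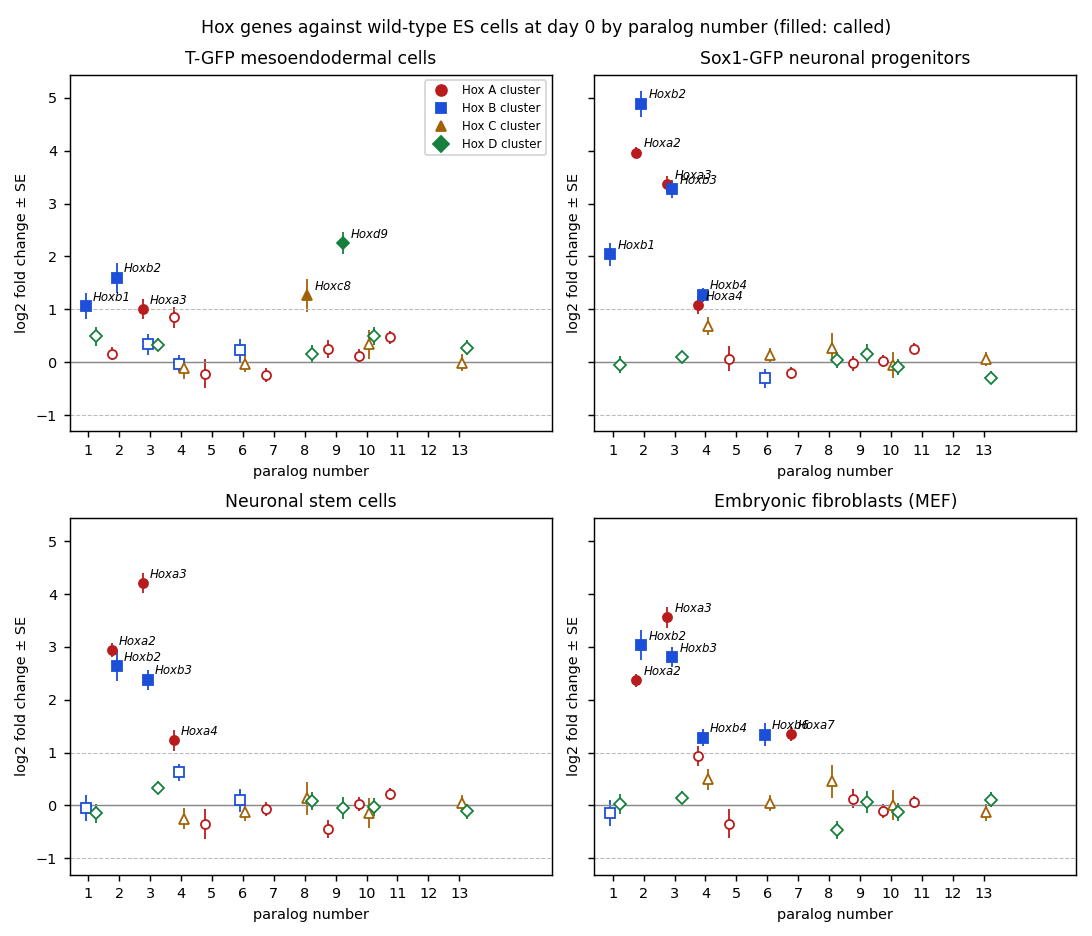
Difference in log2(signal + 32) from wild-type ES cells at day 0 (± SE) for the 24 tested Hox genes by paralog number, in T-GFP cells, Sox1-GFP cells, neuronal stem cells and MEF; filled points were called. The calls lie at numbers 1 to 4 in the neural cells, reach number 7 in MEF, and include Hoxd9 in T-GFP cells.

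No Hox gene was called in Ezh2-null cells before day 6. At day 0 limma called 0 of 24 in Ezh2-null cells (0.0507% of all genes), and 1 had an unadjusted p under 0.05. The median was -0.04, and 8 of 24 differences were above 0. Hoxd13, the gene of digits and genitals, read from 62.7 to 77.6 with a median of 69.2 against from 63.7 to 106 with a median of 71.1 in wild type, with a 95% interval of -0.26 to 0.13, and Hoxd9 had an interval of -0.30 to 0.27. At day 2 limma again called 0 of 24 (0.123% of all genes), with 2 at an unadjusted p under 0.05. Hoxc13, a gene of hair and nails at the far end of the C cluster, read 30.6, 62.3, 39.2 and 64.8 against 25.3, 30.2, 26.2 and 12.1 in wild type (0.54 ± 0.14, adjusted p = 0.046), and every mutant array exceeded every wild-type array, as for 2.74% of all genes, though it missed the fold. Hoxb1 read 35.5, 44.5, 16.6 and 31.2 in Ezh2-null and 28.9, 44.8, 19.5 and 16.1 in wild-type cells at day 2 (0.11 ± 0.22, adjusted p = 0.99), with overlap. All 4 of these Ezh2-null arrays lay above the Ezh2-null range of day 0, 11.2 to 15.6; that step was not tested.

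In undifferentiated Eed-null cells several Hox genes were higher than in wild type, each by less than 2-fold on the log2(signal + 32) scale, which understates the change of dim genes. Among them were the posterior genes Hoxd9, Hoxd13 and Hoxc13 and the central gene Hoxc8. By limma none of 24 was called at 2-fold (2.26% of all genes were), but 12 were higher at an adjusted p under 0.05 at any fold and none lower, beside 24.1% of all genes higher and 17.6% lower by the same rule. All 5 Eed-null arrays lay above all 7 wild-type arrays for 11 of the 24, beside 14.1% of all genes. The median was 0.34 over the tested members and 0.04 over all genes, and all 8 posterior members were above 0, with a median of 0.68. Hoxd13 read 150, 194, 198, 172 and 164 against from 63.7 to 106 with a median of 71.1 in wild type (0.96 ± 0.10, adjusted p = 8.6e-10). Hoxd9 read 62.9, 94.9, 127, 96.8 and 81.3 against 24.6 to 33.9 (0.99 ± 0.15), and Hoxc13 42.4, 75.3, 53, 60 and 53.5 against 11.2 to 24 (0.80 ± 0.12). The lowest of each gene's Eed-null arrays still exceeded its highest wild-type array. Hoxa10 and Hoxd10, which act in the lumbar region, differed by 0.57 ± 0.10 and 0.70 ± 0.12, and Hoxc8 by 0.83 ± 0.23. Hoxb1 (20.5, 19.4, 12.6, 11.2 and 16.1) and Hoxb3 (10.5, 18.4, 8.1, 7.7 and 4.3) overlapped wild type, with intervals of -0.42 to 0.31 and -0.20 to 0.36.

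Fibroblast markers differed the same way as these genes at day 0: 6 of 10 were called higher in Eed-null cells, and Col1a1, a collagen of fibroblasts, read 788, 751, 518, 647 and 9 in replicates 1 to 5 against 3.3 to 237 in wild type. Replicate 5, with Col1a1 at 9, read 163.8 for Hoxd13, 81.3 for Hoxd9, 53.5 for Hoxc13, 44.7 for Hoxc8 and 87.6 for Hoxa10. Its signal lay above all wild-type arrays for 13 of the 24, beside 28.44% of all genes. MEF themselves read 31.8 and 34.3 for Hoxd9 and 13 and 15.6 for Hoxc13, close to the wild-type ranges. Of the MEF-high genes, Hoxa2 read 10.5, 18.9, 9.8, 4.1 and 5.3 in Eed-null cells. It overlapped wild type, as did Hoxa7, Hoxb3, Hoxb4 and Hoxb6. Hoxa3 read 33.1 to 50.8 against at most 25.6 in wild type, and Hoxb2 31.5 to 42.1 against at most 31.5. Replicate 5 was the lowest Eed-null array for 5 of the 24, beside 15.3% of all genes. Among the 5 were Hoxa3, Hoxb2, Hoxc8 and Hoxc10. Fits without the Eed-null arrays of high Col1a1 kept replicate 5 as the only Eed-null array. The part of fibroblasts in these differences was thus not tested. Sox17, Cubn and Amn, genes of endoderm, were higher too (3 of 6 endoderm markers); their part in the result was not tested. Centring each array on its median moved the median of all genes from 0.04 to -0.10, left 17 instead of 22 of 24 Hox genes above 0, and moved the Hox median to 0.20. The all-gene calls, 210 higher and 102 lower, became 133 and 189. With a pseudocount of 8, 6 Hox genes were called.

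**Figure D4:**
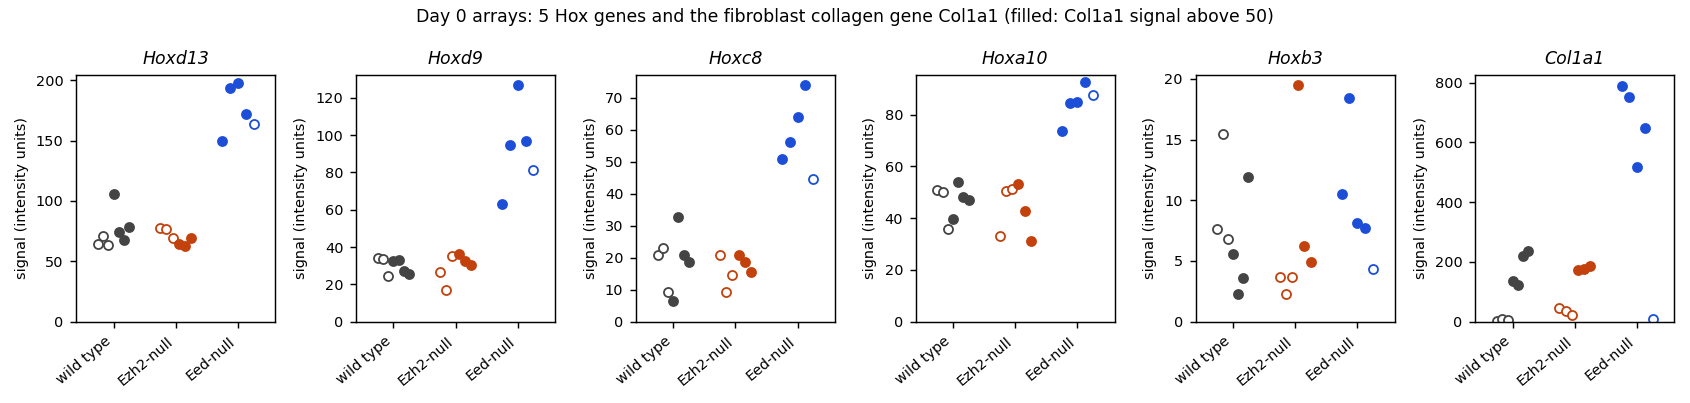
Deposited signal at day 0 on each array of the 3 genotypes for Hoxd13, Hoxd9, Hoxc8, Hoxa10, Hoxb3 and the fibroblast gene Col1a1; filled points are arrays with Col1a1 above 50. Eed-null replicate 5, with Col1a1 at 9, lies above all wild-type arrays for the first 4 genes, as the lowest Eed-null array for Hoxc8. For Hoxb3 it lies within the wild-type range.

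At day 2 the Eed-null cells had 1 Hox gene higher and none lower (0.456% of all genes were higher and 0.579% lower). Hoxd13 read 268 and 250.5 against 70, 93.2, 54.8 and 82.5 in wild type (1.46 ± 0.15, adjusted p = 6.7e-09). Hoxd9 came closest to the limit from below: it read 101 and 115 against 28.1, 34.2, 26.2 and 71.6, where wild-type replicate 4 is far above the other 3, and differed by 0.997 (adjusted p = 0.0043). Hoxd10 read 106 and 92.2 against 39.8, 35.3, 47.9 and 57.3 (0.77 ± 0.18, adjusted p = 0.0085), and Hoxa10 99.7 and 99.1 against 52.2, 42, 58.3 and 45 (0.70 ± 0.14). For all 4 of these genes both Eed-null arrays exceeded all 4 wild-type arrays, as for 13.9% of all genes. In all, 22 of 24 differences were above 0, with a median of 0.29. Limma called 2 with quantile normalisation or with centred arrays, 5 with a pseudocount of 8 and 0 with the larger one.

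At day 6, 1 posterior Hox gene was higher than in wild type in Ezh2-null and 4 in Eed-null cells, and the anterior genes Hoxb1 and Hoxb2 were lower in both. In Ezh2-null cells Hoxc13 was higher (1.89% of all genes were) and Hoxb1 and Hoxb2 lower (1.14%). In Eed-null cells Hoxc13, Hoxd13, Hoxa10 and Hoxd9 were higher (1.85%) and Hoxb1 and Hoxb2 lower (1.25%). The mutants were set against the same wild-type arrays, so their lists are not independent, and values are given side by side.

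Hoxb1 read 176, 198, 119.8, 28 and 48.4 in wild type, 14.6, 15.3, 12.1, 16.5 and 13.6 in Ezh2-null and 10.7 and 16.9 in Eed-null cells. The mutant arrays all lay below the wild-type arrays and at or below the range of undifferentiated wild-type cells, which was 12 to 24.6. The differences were -1.47 ± 0.19 (limma, adjusted p = 1.4e-07) and -1.49 ± 0.26 (4.5e-05). Within the second array set they were -0.97 and -0.98, under 2-fold, and within the first set -2.22 for Ezh2-null. Hoxb2 read 382, 293, 179.5, 60.3 and 69.7 in wild type, 45, 40.6, 20.4, 8.6 and 15.8 in Ezh2-null and 20.5 and 28.9 in Eed-null cells (-1.78 ± 0.22 and -1.77 ± 0.30, adjusted p = 5.2e-08 and 2.8e-05). No mutant array reached the wild-type range; all arrays lay below wild type in this way for 5.29% of all genes in Ezh2-null and 18.5% in Eed-null cells. With a spread estimated from the arrays compared alone, the Eed-null calls were lost (adjusted p = 0.10 for Hoxb1 and 0.087 for Hoxb2). Hoxb3 was lower without reaching 2-fold (-0.71 ± 0.15 in Ezh2-null, adjusted p = 0.00031; -0.55 ± 0.20 in Eed-null, 0.055). All 5 tested B-cluster genes were below 0 in both mutants.

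Hoxc13 read 25.6, 28.1, 32.2, 32.4 and 24 in wild type, 95.4, 134, 176, 129 and 161 in Ezh2-null and 135 and 138 in Eed-null cells. All mutant arrays lay above all wild-type arrays, as for 6.01% (Ezh2-null) and 17% (Eed-null) of all genes. The differences were 1.48 ± 0.13 (adjusted p = 4.2e-12) and 1.48 ± 0.17 (1.3e-08), and they were 1.60 and 1.45 within the second array set. Hoxd9 reached its highest level in the series in Eed-null cells at 542 and 525, against 188, 213, 118, 124 and 133 in wild type (1.62 ± 0.21, adjusted p = 3.4e-07). In Ezh2-null cells it read 171, 218, 441, 291 and 329.7 and missed the fold (0.75 ± 0.16, 0.00041), with replicate 1 inside the wild-type range. This difference was split by array set. Replicates 1 and 2, of the first set, were close to wild-type replicates 1 and 2 (188 and 213). Replicates 3 to 5, of the second set, lay well above wild-type replicates 3 to 5 (118, 124 and 133). Hoxd13 read 207 and 206 in Eed-null and 147, 148, 99.5, 98.9 and 83.1 in Ezh2-null cells against 84.6, 77.4, 65.6, 48.7 and 64.9 (1.26 ± 0.15 and 0.54 ± 0.11); Ezh2-null replicate 5 overlapped wild type. Hoxa10 read 165 and 154 and 87.9, 96.2, 83.9, 95.8 and 79.2 against 74.5, 57.1, 41.7, 36.7 and 47.9 (1.21 ± 0.14 and 0.54 ± 0.10). Averaged over their probe sets, the Eed-null differences were 0.49 for Hoxa10 and 0.99 for Hoxd13.

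Counted without the fold, 10 of 24 were higher and 4 lower in Ezh2-null cells at an adjusted p under 0.05 (12.6% and 12.4% of all genes), and 10 and 2 in Eed-null cells (7.81% and 7.44%). Hoxc8 read 332, 352, 221, 144 and 138 in Ezh2-null and 206 and 183 in Eed-null cells against 258, 211, 60.1, 33.3 and 48.7 in wild type (0.99 ± 0.25, adjusted p = 0.0021, and 0.82 ± 0.33, 0.084). Over all arrays the groups overlapped, but the Ezh2-null array was the higher in all 5 same-numbered pairs. Within each array set the Ezh2-null arrays lay above wild type. Both Eed-null arrays belong to the second set, and they lay above its wild-type replicates 3 to 5. Hoxc10 was also higher in all 5 pairs. It read 106, 108, 48.7, 28.2 and 25.5 in Ezh2-null against 100.2, 81.5, 11.4, 11.2 and 9.1 in wild-type replicates 1 to 5. Its difference was 0.45 ± 0.22 (limma, adjusted p = 0.15, and 0.00101 with the replicate block), under 2-fold. Whether equal numbers mark pairs or only a shared array set was not tested. In Eed-null cells Hoxc10 read 79.2 and 77.6, below wild-type replicates 1 and 2 and above replicates 3 to 5 of its own array set. Ezh2-null cells also had Hoxd10 at 0.69, Hoxa3 at 0.46 and Hoxb6 at -0.66. All 8 tested posterior genes were above 0 in each mutant, with medians of 0.54 (Ezh2-null) and 0.99 (Eed-null), while the 7 anterior genes had medians of -0.22 and 0.08. The Spearman correlation of paralog number with the difference across the 24 genes was 0.700 and 0.691, a description of genes that share clusters and, between mutants, wild-type arrays. By cluster, the A-cluster median was 0.14 and 0.58, the C-cluster median 0.45 and 0.77 and the D-cluster median 0.46 and 0.50, against -0.71 and -0.57 in the B cluster. The tested B-cluster genes were Hoxb1, Hoxb2, Hoxb3, Hoxb4 and Hoxb6, none of them posterior. Low paralog number and membership of the B cluster thus overlap and were not separated. Outside the B cluster the anterior genes Hoxa3, Hoxd1 and Hoxd3 were above 0 in both mutants, and Hoxa2 was below 0 in Ezh2-null cells only.

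Other states of the cells moved with genotype at day 6. Streak and mesoderm markers were lower in both mutants (6 of 6 called) and 5 of 6 ES cell markers higher, with ES marker sums of 4039 to 6598 in wild type, 4602 to 16538 in Ezh2-null and 14585 to 14862 in Eed-null cells. The fibroblast marker sums were 1789.5 to 2362, 1812 to 6688 and 1254 to 1278, highest in Ezh2-null replicates 1 and 2. The part of these states in the Hox differences was not tested. Ezh2-null replicate 3, whose ES marker sum of 4602 lay within the wild-type range, read 12.1 for Hoxb1, 20.4 for Hoxb2 and 175.5 for Hoxc13, on the mutant side of each. Its other marker sums were on the mutant side too. They were 718 against 2522 to 6971 in wild type for streak and mesoderm and 1277 against 517 to 786 for neural progenitors. State and genotype thus cannot be told apart in this array. With the larger pseudocount limma called 0 Hox genes in Ezh2-null and 1 in Eed-null cells, and with a filter at the 75th percentile of each array 1 and 3. Within the first array set alone and within the second alone, 5 Hox genes were called in Ezh2-null cells, but not all the same ones. Hoxb1 was called in the first set and stayed under 2-fold in the second. Hoxb6 read 34.5 and 24.8 in Ezh2-null against 118.4 and 90.3 in wild type in the first set, and overlapped in the second. Hoxd9 was close to wild type in the first set and above it in the second.

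**Figure D5:**
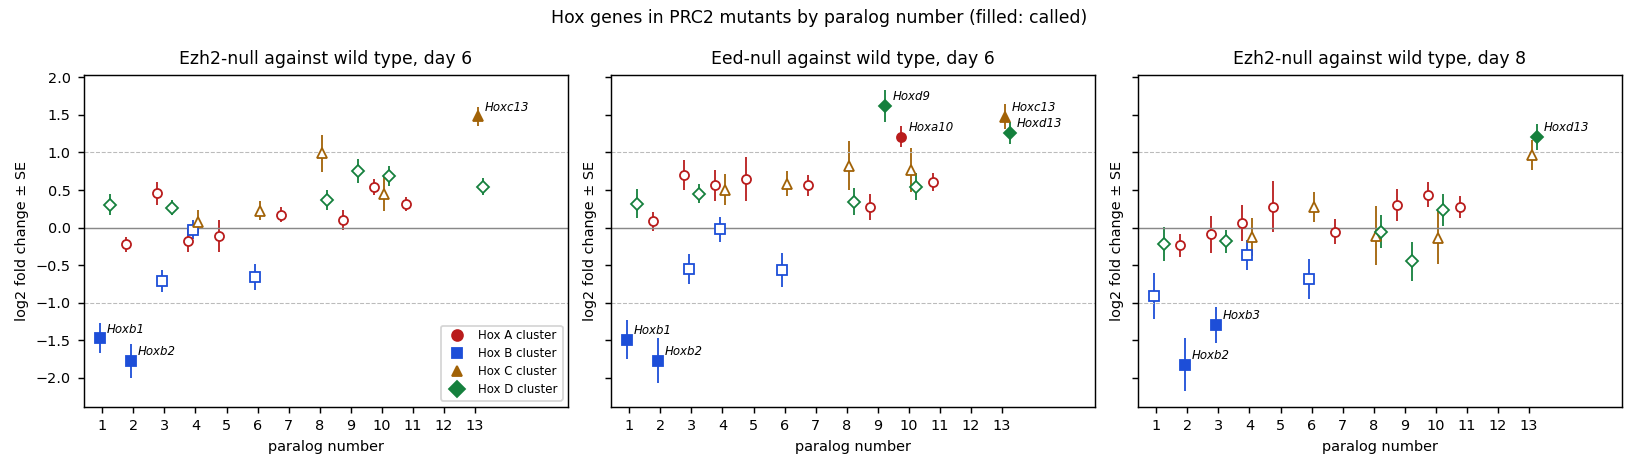
Difference in log2(signal + 32) from wild type of the same day (± SE) for the 24 tested Hox genes by paralog number, in Ezh2-null cells at day 6, Eed-null cells at day 6 and Ezh2-null cells at day 8; filled points were called. Hoxb1 to Hoxb3 lie below 0 in all 3 panels, and Hoxc13 and Hoxd13 above 0.

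Set directly against each other at day 6, with no wild-type array, the mutants gave 0 calls by limma among 24 (0.739% of all genes), with 10 at an unadjusted p under 0.05. Compared with Eed-null cells, 4 posterior and central genes were lower in the Ezh2-null arrays at an adjusted p under 0.05 without the fold (2.07% of all genes): Hoxd9 (-0.87 ± 0.21, adjusted p = 0.011), Hoxa4 (-0.74 ± 0.20), Hoxd13 (-0.72 ± 0.15) and Hoxa10 (-0.67 ± 0.14). For all 4 every Ezh2-null array lay below both Eed-null arrays, as for 10.1% of all genes. Ezh2-null replicates 1 and 2 belong to the other array set from both Eed-null arrays. Within the second set, an alternative chosen after seeing the data, the differences were -0.57 ± 0.19 for Hoxd9 (adjusted p = 0.0348), -0.58 ± 0.16 for Hoxa4 (0.00991), -0.92 ± 0.13 for Hoxd13 (4.71e-06) and -0.70 ± 0.11 for Hoxa10 (3.47e-05), again under 2-fold. Hoxc10 was at -0.76 ± 0.15 there (0.000379), against -0.32 ± 0.29 over all arrays (0.59). For Hoxb1 and Hoxc13 the 95% intervals were -0.50 to 0.54 and -0.33 to 0.34. A pseudocount of 8 gave 1 call.

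At day 8 the Ezh2-null cells had 1 Hox gene higher (0.782% of all genes) and 2 lower (0.282%) than wild type. Hoxd13 read 299.7 and 228 against 98.5 and 91.9 in wild type (1.21 ± 0.18, adjusted p = 1.7e-05). Hoxb2 read 39.8 and 33.3 against 179.9 and 247 (-1.83 ± 0.35, 0.0012) and Hoxb3 23.5 and 8.7 against 75.6 and 94.5 (-1.30 ± 0.24, 0.00061). The 2 arrays of each group did not overlap for any of the 3, but with 2 against 2 arrays that held for 31.7% of all genes in the higher and 22.5% in the lower direction. Hoxc13 read 97.4 and 73.1 against 24.1 and 31.9 and missed the fold (0.96 ± 0.20, 0.0025), and Hoxb1 read 13.8 and 17.7 against 50.5 and 65.8 (-0.91 ± 0.31, 0.12). Hoxc8, Hoxc10 and Hoxd9, which had risen in wild type by this day, differed by -0.11 ± 0.39, -0.14 ± 0.35 and -0.45 ± 0.26 and were not called. The ES marker sums were 20283 and 20684 in Ezh2-null and 8527 and 9631 in wild-type cells at this day, and their part in the result was not tested. Without wild-type replicate 2 the adjusted p of Hoxb2 was 0.051 and without Ezh2-null replicate 2 that of Hoxb3 0.059. Averaged over probe sets Hoxb3 was at -0.87 and Hoxd13 at 0.82, which left 1 call, as did the larger pseudocount.

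The response within each genotype, day 6 against day 0, differed by gene. In Ezh2-null cells 5 of 24 rose (8.64% of all genes): Hoxa3, Hoxc8, Hoxc13, Hoxd9 and Hoxd10. Hoxd9 differed by 2.33 ± 0.16 (adjusted p = 8.4e-17), Hoxc8 by 2.39 ± 0.24 and Hoxc13 by 1.47 ± 0.12. In Eed-null cells 2 rose (5.55%), Hoxd9 by 2.20 ± 0.21 and Hoxc8 by 1.34 ± 0.33. Hoxb1 and Hoxb2 were not called in either, at 0.02 ± 0.19 and 0.10 ± 0.21 in Ezh2-null and -0.07 ± 0.26 and -0.28 ± 0.30 in Eed-null cells.

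The difference between these responses was tested as an interaction of genotype and day, which shares the wild-type arrays of both days. In Ezh2-null cells the response was larger than in wild type for Hoxc13 (1.22 ± 0.17, adjusted p = 1.3e-06) and Hoxc8 (1.04 ± 0.33, 0.024), with 1.85% of all genes, and smaller for Hoxb2 (-1.78 ± 0.30, 3.4e-05) and Hoxb1 (-1.36 ± 0.26, 0.00022), with 1.24%. In Eed-null cells it was smaller for Hoxb2 (-2.16 ± 0.36, 3.6e-05) and Hoxb1 (-1.44 ± 0.31, 0.0011), with 2.41% of all genes, and larger for none (2.27%). Centring each array moved the median of all genes there from -0.06 to 0.10 and the all-gene calls from 314 higher and 333 lower to 507 and 232. The Hoxc8 call was at the edge: without wild-type replicate 4 of day 6 it was 0.80 (adjusted p = 0.081), and with J1 alone as wild type 0.60 (0.30). With CJ7 alone Hoxb1 was at -0.60 (0.055) and Hoxb2 at -0.92 in Ezh2-null cells, and Hoxb1 at -0.68 (0.053) in Eed-null cells. These single-line fits were added after seeing the data.

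The 9 members that did not pass the filter were dim throughout, with no value above 60.3 on any of the 53 arrays. No test of them is given here. Hoxc9, between Hoxc8 and Hoxc10 on the chromosome, read 25.3, 26.7, 48.6, 20.8 and 44 in Ezh2-null and 49.6 and 60.3 in Eed-null cells at day 6 against 19.7, 14.5, 1.3, 7 and 3.6 in wild type. Every mutant array was above every wild-type array there, as for 6.01% (Ezh2-null) and 17% (Eed-null) of all genes tested. Hoxd11, next to Hoxd10 and Hoxd12, read 30.7 and 32.6 in Eed-null cells at day 2 against 1.2, 4.4, 8.9 and 4.8 in wild type. Hoxb5 read 21.3 and 27.9 in wild type and 7.5 and 7.2 in Ezh2-null cells at day 8, with 31.5 and 27.4 in MEF. Hoxb9 had its highest group mean in Eed-null cells at day 6 (45.2 and 54.2, against 28.1, 26.6, 38.6, 45.8 and 29.7 in wild type), and Hoxc5 stayed between 9.7 and 49.7 over all arrays. Hoxa13, Hoxb7, Hoxb13 and Hoxd12 never exceeded 37 on any array.

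Among the 8 tested members without a call, small differences passed the test without the fold. Hoxa11, a gene of the forearm and uterus, had group means from 77 in Ezh2-null cells at day 0 to 172.8 in Eed-null cells at day 6, where it read 161 and 184 against 123, 100.1, 99.7, 86.1 and 105 in wild type (0.61 ± 0.12, limma, adjusted p = 0.00047). Hoxa9, known from blood progenitors, read 102, 139, 120.5, 126 and 117 in Eed-null and 61.5 to 76.5 in wild-type cells at day 0 (0.58 ± 0.13, 0.00027). Hoxd3, of the neck, differed by 0.45 ± 0.13 in Eed-null and 0.26 ± 0.10 in Ezh2-null cells at day 6. Hoxc4 was highest in Sox1-GFP cells (45.6, 60.1 and 77.2, 0.68 ± 0.17 against ES cells, adjusted p = 0.0010) and lower in neuronal stem cells (15.1 and 17.6, -0.93 ± 0.23, 0.00086), the direction of Hoxb1, Hoxb2 and Hoxa2 there. Hoxd1 had group means from 15.95 in neuronal stem cells to 52.1 in Eed-null cells at day 6.

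Other genes of the Hox pathway were read from lists chosen with earlier results of these data known. Of the cofactors that bind DNA with Hox proteins, 7 were tested. Pbx3 was lower in both mutants at day 6 (-1.12 ± 0.15 in Ezh2-null and -1.07 ± 0.20 in Eed-null cells) and Meis1 higher in Ezh2-null cells (1.26 ± 0.30, adjusted p = 0.0013), while 5 and 6 were not called. In Sox1-GFP cells 4 of 7 were higher than in ES cells (Pbx2, Pbx3, Meis1 and Meis2). Of 4 tested axial regulators, Fgf8, a signal of the streak and tail bud, was lower in both mutants at day 6: it read 152, 149, 554, 752 and 780.4 in wild type, 21.4, 18.9, 20.8, 34.3 and 24.8 in Ezh2-null and 42.6 and 21.6 in Eed-null cells (-2.90 ± 0.32 and -2.72 ± 0.42). Cdx2, which activates central Hox genes, rose with Fgf8 in wild-type cells by day 6 (1.11 ± 0.12) and was not called in either mutant against wild type.

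Retinoic acid is the signal that opens the anterior Hox genes, and 11 genes of its synthesis, breakdown, binding and receptors were tested. Cyp26a1, which breaks it down and is itself one of its targets, read 405, 389, 993, 1447 and 1564 in wild-type cells at day 6 and 64.2 to 125 and 81.7 to 115 in the mutants (-2.74 ± 0.21 and -2.72 ± 0.28). Dhrs3, a retinal reductase, was higher in Eed-null cells (1.31 ± 0.24), and the other 10 and 9 were not called. Of 12 chromatin regulators Ezh2 alone was called in Ezh2-null cells at days 0, 2, 6 and 8, and Bmi1, a subunit of the other Polycomb complex, was higher in Eed-null cells at day 0 (1.59 ± 0.23) and day 2 (1.34 ± 0.34). Of 11 tested genes that flank the clusters, Evx1, the homeobox gene next to Hoxa13, was lower in both mutants at day 6 (-1.30 ± 0.18 and -1.34 ± 0.24) and had risen in wild type (2.06 ± 0.17) and in T-GFP cells (2.89 ± 0.23). The other 10 neighbours were not called in either mutant at day 6, and Hoxa10 and Hoxa11, members on the Evx1 side of the A cluster, were above 0 in both (0.54 and 0.31 in Ezh2-null, 1.21 and 0.61 in Eed-null cells).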

How the data were processed

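Total RNA was extracted with Trizol and hybridised as biotinylated cRNA to Affymetrix arrays, per the labels' protocols. The values are linear intensities as the authors deposited them, with 1 for each probe set on each array. The summarisation and the scaling behind them are not given in the sources used here. Precision is limited by the number of arrays. Of 45037 probe sets, 34945 carried a single gene symbol and were used, 932 carried several and 9160 none. Each gene was represented by its brightest probe set (mean over 53 arrays). Of the 18193 genes so measured, 13807 passed the filter (above the array median in at least 2 arrays).

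Groups came from the sample titles. Log2(intensity + 32) was fitted with limma 3.58.1 in R 4.3.3 with 1 mean per group (15 groups, 38 residual degrees of freedom), and p-values were adjusted by Benjamini-Hochberg within each of 21 comparisons. The pseudocount understates changes of dim genes. The Hox members, the gene lists, the comparisons and the rules were chosen with earlier results of these data known. In each comparison every called Hox gene could be named and, where few were called, up to 6 with the smallest unadjusted p. From the other lists up to 4 called genes with the largest change were named, and always Ezh2 and Eed. Members named beyond this were chosen after their values were seen.

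Same-numbered wild-type and Ezh2-null replicates deviated together at day 2 (correlations 0.566 to 0.7, 4 pairs) and day 6 (0.384 to 0.721, 5 pairs). Those numbers were read as pairs, from the data alone. Same-numbered arrays also shared an array set, and different-numbered arrays of a set were not compared. A pair and a shared set were thus not separated. Array sets at days 2 and 6 came from the leading component of differences between paired probe sets of 1 gene (3919 pairs).

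Alternatives were pseudocounts 4 times smaller (8) and 4 times larger, other scalings, filters, probe-set means, array subsets, wild-type lines, the replicate block and each array left out. Those with 1 array set over days, between mutants or in an interaction, with 1 wild-type line in an interaction, with day-0 arrays of low Col1a1, with wild-type replicates 4 to 7 in comparisons over days or cell types, and with crossed pairs were chosen after seeing the data. Simulated data had 50 genes among 13807 changed 3-fold on the scale of the fit, with the pseudocount included. In the same data 50 genes each were changed 4-fold, 8-fold and 16-fold. Noise was drawn independently for each array, without array sets or lines, so recovery in the real data may be lower. Of the genes changed 3-fold the fit recovered 50 in Ezh2-null cells of day 6, 49 in Eed-null cells of day 6 and 48 in Ezh2-null cells of day 8. Each group was compared with wild type. On that scale a 3-fold change in the signal of a dim gene is smaller, so its recovery was not tested. Promoter windows were read from RefSeq by symbol.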

Additional observations from a re-analysis of the deposited data

Results flagged for a closer look

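The 16 Hox genes that were called were looked at in each group of 4 to 7 arrays, which made 112 combinations of gene and group. In 5 of them 1 signal stood far from the others of the group. Chance alone would mark about 1 in 20 combinations. Wild-type replicate 4 at day 2 read 24.8 for Hoxa2, against 5.9 to 8.9 in the other 3. Ezh2-null replicate 4 at day 0 read 19.5 for Hoxb3, where the other 5 lay between 2.3 and 6.2. Eed-null replicate 4 at day 0 read 53.6 for Hoxc10, and Ezh2-null replicate 2 at day 2 read 40.8 for Hoxc8. Wild-type replicate 4 at day 0 read 106.1 for Hoxd13, the highest of 7.

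The response to LIF withdrawal of 4 Hox genes in Ezh2-null and 2 in Eed-null cells differed from wild type by the test of the difference itself (interaction of genotype and day 6 against day 0, limma, log2 scale). In Ezh2-null cells the response of Hoxb1 was smaller by a difference of -1.36 and that of Hoxb2 by -1.78, while those of Hoxc13 and Hoxc8 were larger by 1.22 and 1.04. In Eed-null cells the differences were -1.44 for Hoxb1 and -2.16 for Hoxb2.

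A probe set that carries the symbols of both Hoxb8 and Hoxb7, and so stood for no member, had a mean of 266 in Sox1-GFP cells, above its level in wild-type ES cells. It cannot be assigned to either gene.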

How the results depend on the processing

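No count or call changed direction. Counts of called Hox genes moved by over 1.5 times as follows. With a pseudocount of 8 they were 5 (Ezh2-null against wild type, day 6), 6 (Eed-null, day 0), 5 (Eed-null, day 2), 1 (between mutants), 1 (wild type, day 2), 8 (wild type, day 6) and 5 (Eed-null, day 6 against day 0). With a pseudocount 16 times that they were 0 (Ezh2-null, day 6), 1 (Ezh2-null, day 8), 0 (Eed-null, day 2), 1 (Eed-null, day 6), 1 and 3 (wild type, days 6 and 8), 2 and 1 (Ezh2-null and Eed-null, day 6 against day 0), 0 and 1 (interactions), 1 (T-GFP cells) and 4 (MEF). Quantile normalisation gave 2 (Eed-null, day 2), and centring 2 (Eed-null, day 2) and 3 (T-GFP cells). A filter at the 75th percentile, which tests fewer genes, gave 1 and 3 (Ezh2-null and Eed-null, day 6), 3 (Ezh2-null, day 6 against day 0), 2 and 1 (interactions), 4 (Sox1-GFP cells) and 4 (MEF). Probe-set means gave 1 (Ezh2-null, day 8). Either array set alone gave 5 (Ezh2-null, day 6), not all of them the same genes. Wild-type replicates 1 to 3 gave 1 (Eed-null, day 0) and J1 alone 7 (wild type, day 6). Added after seeing the data, the second set, CJ7 alone and low Col1a1 each gave 1 in the Eed-null interaction, and CJ7 alone 2 in the Ezh2-null one. Where no construction shows it, the cause was not tested.

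The numbers of Eed-null arrays do not pair them with wild type (correlations -0.0467 to 0.0533 at day 2 and -0.172 to 0.0227 at day 6), nor do those of Ezh2-null arrays at days 0 and 8, so blocked counts there say little. With the replicate block 2 Hox genes were called for Eed-null cells at day 2 against 1, and the other blocked counts stayed within 1.5 times: 0, 0, 3 and 3 for Ezh2-null cells at days 0, 2, 6 and 8, and 0 and 9 for Eed-null cells at days 0 and 6. At day 8 the crossed pairing gave 3 calls, as did the numbers as given. Leaving out each array in turn gave 0 to 2 (Eed-null, day 0), 1 to 2 (Eed-null, day 2) and 0 to 1 (between mutants), and elsewhere stayed within 1.5 times, for example 3 to 4 (Ezh2-null, day 6) and 6 to 8 (Eed-null, day 6). Of 1267 single-gene values 89 lost their call, most through the fold. Groups of 2 arrays and signals near background limit what could be called.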
